A study of Mus musculus with 4 samples.

Results

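The 38 genes described here belong to glycolysis and to the transcriptional response to hypoxia. They were chosen by gene name, with no measured value in the rule, and all 38 listed names were found among the 31806 gene names with a value on every array. They are represented by 61 probes. The probe with the highest mean signal of each gene was well above background on all 4 arrays, so no value of these 38 is a limit. Levels are the signal of a probe divided by the 75th percentile of the signals on its array, so a level of 1 equals that percentile. Levels are compared between arrays for the same probe and never between probes, because probes differ in how brightly they report their transcript.

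The arrays came from mouse embryonic fibroblasts (MEFs), primary cells grown from embryos, here of C57BL/6J background and harvested in logarithmic growth. Total RNA of 4 preparations was measured by single-color arrays, 1 array per preparation: CycG2-/- (G2KO) with a CycG2+/+ wild type (WT), and CycG1-/-CycG2-/- (DKO) with a CycG1+/+CycG2+/+ WT. The arrays labelled WT are called G2-WT and DKO-WT below after the comparison they belong to. The mice lack CycG1 or CycG2 in every cell, no agent was given, and the proteins they lack are known partners of the phosphatase PP2A, with Ccng1 a target gene of p53. The comparison of each knockout with its WT asks which transcripts differ in cells without these cyclins. With 1 array per group there is no replicate, so no test of any difference was made, and every ratio compares preparations as well as genotypes. The study attributes higher Xist in its G2KO MEFs to cells of female origin. Sex may therefore differ between the arrays of that comparison, and it was not examined here.

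Glycolysis splits glucose into pyruvate through a chain of enzymes from hexokinase to pyruvate kinase, and lactate dehydrogenase turns pyruvate into lactate, which leaves the cell through monocarboxylate transporters. In low oxygen the alpha subunits of the hypoxia-inducible factors (HIF) escape hydroxylation by the Egln enzymes, pair with Arnt and bind short sites of the core letters ACGTG or GCGTG. Most glycolytic genes, and others such as Vegfa, Car9, Adm and Bnip3, are textbook HIF targets. Fibroblasts in culture rely strongly on glycolysis, and glucose, growth signals and cell density all act on these genes.

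Promoter sequences of 5 members are shown because differences described below turn on these genes: Adm was far lower in DKO than in its WT, Car9 and Ldhb were higher there, and Egln3 and Bnip3 differed between the arrays labelled WT. Each run is the 250 bases before the annotated start, 5′ to 3′ on the strand of the gene, from RefSeq on build GRCm38.p6. Capitals mark ACGTG or GCGTG on either strand, where the other strand reads CACGT or CACGC.
Adm, chr7:110627407-110627656, plus strand: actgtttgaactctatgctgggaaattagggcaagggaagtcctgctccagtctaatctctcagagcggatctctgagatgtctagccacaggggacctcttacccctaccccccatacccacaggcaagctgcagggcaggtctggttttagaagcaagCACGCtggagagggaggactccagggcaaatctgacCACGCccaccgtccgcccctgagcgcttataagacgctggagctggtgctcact
Car9, chr4:43506776-43507025, plus strand: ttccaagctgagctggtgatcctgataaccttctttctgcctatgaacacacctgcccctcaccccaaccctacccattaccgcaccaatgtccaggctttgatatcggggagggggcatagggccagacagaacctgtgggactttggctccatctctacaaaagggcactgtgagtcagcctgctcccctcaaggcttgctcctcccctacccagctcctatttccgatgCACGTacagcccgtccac
Ldhb, chr6:142507958-142508207, minus strand: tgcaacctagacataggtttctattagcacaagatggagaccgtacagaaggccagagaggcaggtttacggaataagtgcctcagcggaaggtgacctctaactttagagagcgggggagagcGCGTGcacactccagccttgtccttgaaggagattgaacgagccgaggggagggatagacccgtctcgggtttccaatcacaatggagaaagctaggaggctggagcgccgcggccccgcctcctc
Egln3, chr12:54203875-54204124, minus strand: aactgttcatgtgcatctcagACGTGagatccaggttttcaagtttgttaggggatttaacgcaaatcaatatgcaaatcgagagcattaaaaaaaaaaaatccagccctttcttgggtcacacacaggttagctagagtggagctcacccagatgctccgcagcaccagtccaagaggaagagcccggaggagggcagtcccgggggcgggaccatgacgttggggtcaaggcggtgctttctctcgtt
Bnip3, chr7:138909507-138909756, minus strand: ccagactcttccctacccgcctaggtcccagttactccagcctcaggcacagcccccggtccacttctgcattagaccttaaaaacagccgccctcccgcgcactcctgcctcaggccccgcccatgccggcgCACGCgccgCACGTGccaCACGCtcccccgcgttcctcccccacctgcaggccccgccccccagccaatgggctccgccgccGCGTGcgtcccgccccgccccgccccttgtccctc

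The Adm window holds 2 matches of GCGTG, the Car9 and Egln3 windows 1 match of ACGTG each, and the Ldhb window 1 of GCGTG. The Bnip3 window holds 5 matches, of which 2 are the same 6 bases CACGTG read on both strands. At least 1 match stood in 40 of the 49 windows listed for the members (81.6%) and in 12679 of all 32851 windows of that length (38.6%). Counted by gene, 32 of the 35 members with an entry had a match (91.4%), as did 41.5% of 27025 genes. Slc2a3, Ndrg1 and Epas1 have no entry in the table used. The list holds known HIF targets and base composition was not taken into account, so this share only describes the list. The printed genes with matches include genes that were higher and genes that were lower in the same comparison.

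Across the series, 64.98% to 72.21% of probes were well above background on each array. Ccng1 was at levels of 1.98 on the array labelled G2KO, 9.45 on G2-WT and 1.66 on DKO-WT, and was not well above background on DKO, at least 228-fold lower than on DKO-WT. Ccng2 was at 0.0910, 0.104, 0.0619 and 0.0806 on the arrays labelled G2KO, G2-WT, DKO and DKO-WT, and the levels of arrays labelled knockout and WT thus lay close together. Where the probe lies relative to the deleted part is not given in the sources used here, so Ccng2 checks neither the G2KO nor the DKO label, whereas Ccng1 separates DKO from the rest. The direction of the G2KO comparison is not settled. With the labels as deposited, En2, Foxa2 and Sox2 were far lower and Pdgfra and Lox far higher on the array labelled G2KO than on G2-WT, which is opposite to the direction given for these genes in the study's own list for G2KO MEFs. En2, for example, was at 0.0260 on the array labelled G2KO and 14.8 on G2-WT, and Lox at 9.95 and 0.616. The labels of these arrays may be exchanged, so that G2KO and G2-WT name arrays by label only, every log2 ratio of that comparison would change sign, and its counts and median over the 38 genes are also given that way. The preparations also differed in cell type markers, and these values apply to every ratio below. Fibroblast markers (14 genes) summed to levels between 326 on DKO and 516 on DKO-WT. In DKO, 6 of the 14 were at least 2-fold lower than in DKO-WT and 1 was higher. On the array labelled G2KO, 8 of the 14 were at least 2-fold above G2-WT and 0 below, with a median log2 ratio of 2.43. On DKO-WT, 9 of the 14 were at least 2-fold above G2-WT and 0 below, with a median of 3.64. The defining fibroblast gene Pdgfra was not well above background on G2-WT, was at 0.0296 on DKO and reached 5.22 on DKO-WT, whereas Dcn was at 49.0 on DKO and 2.95 on DKO-WT, and Col1a1 and Vim were level (log2 ratios -0.03 and -0.05 in DKO). Mesothelial markers (12 genes) summed to 149 on DKO and to at most 1.73 elsewhere. Neural progenitor markers (10 genes) summed to 47.9 on G2-WT and to at most 5.42 elsewhere. In such bulk RNA, fewer cells of a type and less RNA per cell cannot be told apart, and the part of these markers in the ratios below was not tested.

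In DKO MEFs, most glycolytic and hypoxia response genes were close to their level in DKO-WT. Of the 38 genes, 4 were at least 2-fold higher (Aldoc, Ldhb, Slc16a3 and Car9) and 3 at least 2-fold lower (Pdk1, Ankrd37 and Adm). Among all 22881 genes with a ratio, 10.6% were at least 2-fold higher and 9.61% at least 2-fold lower, so the shares of 10.5% and 7.89% among the 38 were close to this background. With normexp background correction the split was 2 higher and 3 lower. The median log2 ratio of the 38 was -0.04 beside 0.03 for all genes. A difference of 4-fold or more was seen for 1 of the 38 genes (2.63%), Adm, against 8.07% of all genes. The SD of the log2 ratios was 0.93 over the 38 and 1.28 over all genes.

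**Figure D1:**
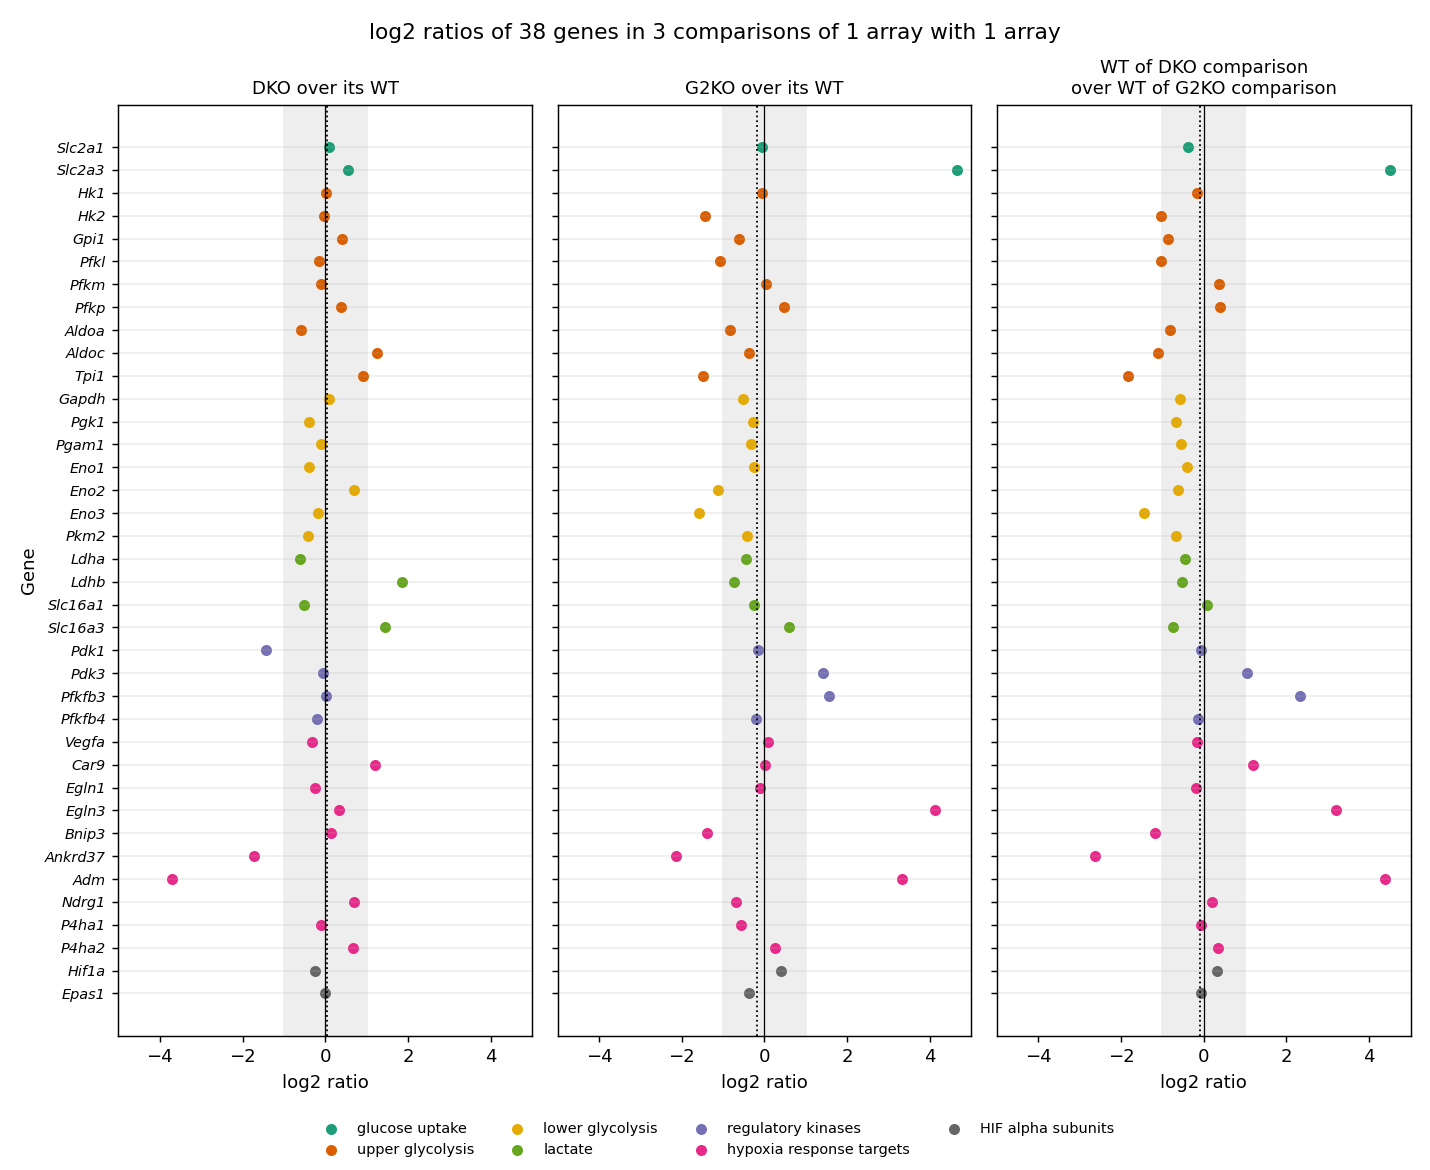
log2 ratio (x axis) of each of the 38 genes (y axis, ordered and coloured by role) in the comparison of DKO with DKO-WT, of the array labelled G2KO with G2-WT, and of DKO-WT with G2-WT; the grey band is less than 2-fold and the dotted line is the median of all genes. In DKO, 7 genes lay at or beyond the edge of the band, with Adm farthest at -3.70, and Slc2a3, Egln3 and Adm lay far to the right in the comparisons that use G2-WT.

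In the comparison of the array labelled G2KO with G2-WT, 5 of the 38 genes were at least 2-fold higher (Slc2a3, Pdk3, Pfkfb3, Egln3 and Adm) and 7 at least 2-fold lower (Hk2, Pfkl, Tpi1, Eno2, Eno3, Bnip3 and Ankrd37). All genes gave 8.74% and 8.37% of 22791, and the 38 gave 13.2% and 18.4%. Without scaling between arrays the split was 6 higher and 2 lower, and with the median over a gene's probes 4 higher and 9 lower. The median log2 ratio was -0.27 for the 38 and -0.17 for all genes, that is -0.10 relative to all genes, and 0.06 relative to all genes after quantile normalization. Differences of 4-fold or more numbered 4 (10.5%), against 5.73% of all genes. With the labels exchanged, 7 of the 38 were at least 2-fold higher and 5 lower in the knockout, with a median log2 ratio of 0.27.

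The arrays labelled WT differed from each other by as much. DKO-WT was at least 2-fold above G2-WT for 6 of the 38 genes (15.8%, against 11.7% of 22137 genes) and at least 2-fold below it for 7 (18.4%, against 9.92%). The split was 5 higher and 9 lower with scaling to the median, and 6 and 3 without scaling. It was 6 and 9 with the median over a gene's probes. At 4-fold or more it was 5 genes (13.2%, against 7.39%). These comparisons share arrays: G2-WT stands in the denominator of both the G2KO and the WT ratio, so the recurrence of Slc2a3, Pdk3, Pfkfb3, Egln3, Adm, Hk2, Pfkl, Tpi1, Eno3, Bnip3 and Ankrd37 in both is no independent observation. Set directly against each other, the array labelled G2KO and DKO-WT differed at least 2-fold for 3 of the 38 (7.89%, against 9.18% of 21409 genes), with log2 ratios of 1.32 for Slc16a3, -1.18 for Car9 and -1.04 for Adm. The SD of their log2 ratios was 0.50 over the 38 and 0.54 over 19466 genes well above background on every array. Between DKO-WT and G2-WT it was 1.47 over the 38 and 1.02 over those genes. With the labels exchanged, the arrays of the WT cells would be the array labelled G2KO and DKO-WT, the pair that differed less. DKO differed at least 2-fold from G2-WT for 16 of the 38 (42.1%, against 25.8% of 23880 genes) and from the array labelled G2KO for 7 (18.4%, against 23.6% of 23799).

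Counting by array, G2-WT was the highest of the 4 for 21 of the 38 genes (55.3%) and the lowest for 10 (26.3%), against 36.7% and 23.4% of the 19466 genes well above background on every array. It stood at least 2-fold above the other 3 arrays for 5 genes (Hk2, Pfkl, Eno3, Bnip3 and Ankrd37), where 3.07% of 24495 genes did so, and at least 2-fold below them for 3 (Slc2a3, Pfkfb3 and Egln3), where 3.45% did. DKO stood at least 2-fold above the other 3 for 2 genes, Ldhb and Car9 (6.31% of all genes), and below them for 2, Pdk1 and Ankrd37 (3.39%). DKO-WT stood above the others for 1 gene, Adm (1.85% of all genes), and below them for 0 (0.535%). The array labelled G2KO stood above the others for 0 genes (1.11%) and below them for 0 (0.298%). With G2-WT set aside, DKO was at least 2-fold above both remaining arrays for Ldhb and Car9 (5.26%, against 8.33% of 24008 genes) and below both for Pdk1, Ankrd37 and Adm (7.89%, against 5.94%).

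**Figure D2:**
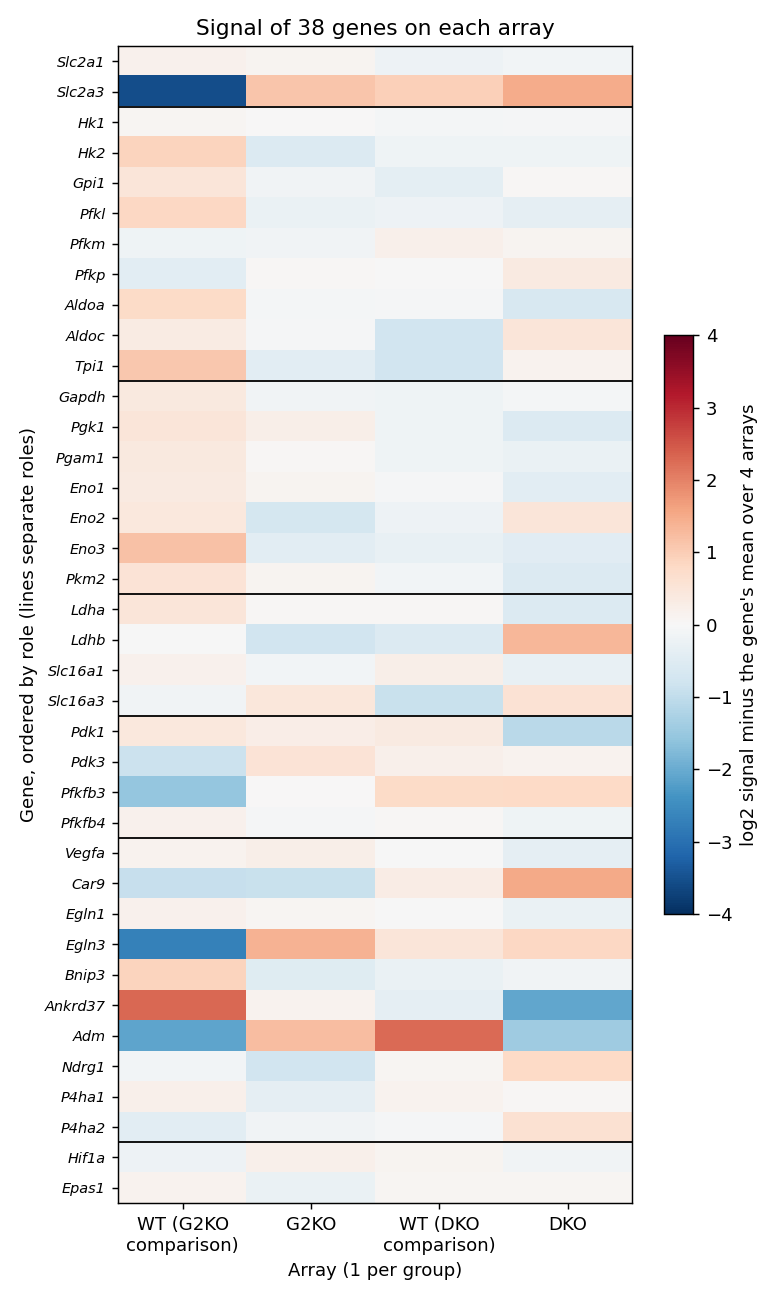
Signal of the 38 genes (rows, ordered by role from glucose uptake at the top to the HIF alpha subunits at the bottom) on the 4 arrays (columns), as log2 signal minus the mean of the gene over the 4 arrays (colour scale from -4 to 4). G2-WT holds the highest signal for 21 genes (36.7% of all genes) and the deepest blue cells, for Slc2a3 and Egln3, and DKO stands apart in Ldhb, Car9, Pdk1 and Ankrd37.

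Glucose enters fibroblasts mainly through Slc2a1, the widely expressed glucose transporter, and Slc2a3 is the high-affinity transporter typical of neurons. Slc2a1 was at levels of 6.23 on the array labelled G2KO, 6.53 on G2-WT, 5.38 on DKO and 5.06 on DKO-WT. Its probe, on chromosome 4 at 118809864-118809923 of mm9, thus gave nearly the same level on every array, with log2 ratios of 0.09 in DKO and -0.07 in the array labelled G2KO. Slc2a3 was at 0.288, 0.0114, 0.377 and 0.258 in the same order. It was low on G2-WT only, 25.3-fold below the array labelled G2KO and 22.7-fold below DKO-WT, whereas DKO and DKO-WT differed by a log2 ratio of 0.55. With normexp correction the log2 ratios to G2-WT fell from 4.66 to 2.56 (array labelled G2KO) and from 4.50 to 2.42 (DKO-WT), as the level on G2-WT lay near the floor. Its probe lies on chromosome 6 at 122678075-122678134.

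The enzymes of upper glycolysis turn glucose into triose phosphates. Hexokinase 1 (Hk1) was at 11.4, 11.9, 10.8 and 10.6 on the arrays labelled G2KO, G2-WT, DKO and DKO-WT, close to each other on all 4 arrays. Hexokinase 2 (Hk2), the inducible form bound to mitochondria, was at 1.03, 2.80, 1.34 and 1.36. Hk2 was therefore highest on G2-WT, 2.71-fold above the array labelled G2KO and 2.06-fold above DKO-WT, and was level between DKO and DKO-WT (log2 ratio -0.02). Glucose-6-phosphate isomerase (Gpi1) had log2 ratios of 0.42 in DKO and -0.62 in the array labelled G2KO, and its 3 probes gave nearly the same ratios.

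Phosphofructokinase, which commits the sugar to glycolysis, is built from Pfkl, Pfkm and Pfkp subunits. The liver-type subunit Pfkl was at 1.02, 2.14, 0.942 and 1.05 on the arrays labelled G2KO, G2-WT, DKO and DKO-WT, again highest on G2-WT. The muscle-type Pfkm did not share this pattern, with a log2 ratio of the array labelled G2KO to G2-WT of 0.03. The probes of the platelet-type Pfkp differed in direction. The brightest gave 0.47 for that ratio, and a dimmer probe, highest on G2-WT, gave -0.36. In DKO the 3 subunits had log2 ratios of -0.15, -0.09 and 0.37 by their brightest probes, all under 2-fold. The dimmer Pfkp probe gave -0.12 there. The Pfkm probe is printed on the array in 10 spots, and the SD of log2 signal between these spots was 0.0383 to 0.104 per array, which is the error of the spots and not that of the preparations.

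Aldolases cleave the phosphorylated hexose. Aldoa, the main form in most tissues, was at 59.2 on the array labelled G2KO, 105 on G2-WT, 39.8 on DKO and 59.6 on DKO-WT, highest on G2-WT and lowest on DKO, with a log2 ratio of -0.58 in DKO. Aldoc, the form found in brain, was at 0.0850, 0.110, 0.121 and 0.0513. DKO was highest and DKO-WT lowest, a 2.37-fold difference, while the levels of the other 2 arrays lay in between and nearer to DKO. With normexp background correction the log2 ratio of Aldoc in DKO was 0.995, just under 2-fold. Triose phosphate isomerase (Tpi1) was at 15.8, 43.8, 22.9 and 12.2, highest on G2-WT. In DKO its log2 ratio was 0.91 by this probe and 1.03 by its second probe, so that the gene lay at the 2-fold line.

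Lower glycolysis runs from glyceraldehyde-3-phosphate dehydrogenase (Gapdh) to pyruvate kinase, and none of its 7 members differed by 2-fold between DKO and DKO-WT, with log2 ratios from -0.42 to 0.69. Gapdh was at 115 on the array labelled G2KO, 165 on G2-WT, 119 on DKO and 111 on DKO-WT by its brightest probe. All 7 Gapdh probes were highest on G2-WT, but they disagreed on the size of the difference. The log2 ratio of DKO-WT to G2-WT ranged from -1.60 to -0.57 over the probes, with the brightest probe at the small end, and 6 of the 7 probes passed 2-fold there. The files place 1 of the 7 on chromosome 8 and the others on chromosome 6, and Gapdh has many near-identical copies in the genome, so its level is uncertain. Gapdh is often used as a constant reference transcript, and its ratio in DKO was 0.10 to 0.59 on the log2 scale.

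Phosphoglycerate kinase (Pgk1), phosphoglycerate mutase (Pgam1), enolase 1 (Eno1) and pyruvate kinase (named Pkm2 in the files) shared an order of levels. Pgk1 was at 53.1, 64.0, 30.8 and 40.5 on the arrays labelled G2KO, G2-WT, DKO and DKO-WT. Pgam1 was at 52.7, 66.6, 42.4 and 45.2 in the same order, Eno1 at 65.6, 78.5, 45.2 and 59.0, and Pkm2 at 44.3, 59.3, 27.8 and 37.4. For all 4 genes G2-WT was highest and DKO lowest, with log2 ratios in DKO of -0.39 (Pgk1), -0.09 (Pgam1), -0.38 (Eno1) and -0.42 (Pkm2). The other enolases differed from this order. Eno2, the neuronal form, was at 0.493, 1.08, 1.13 and 0.701, with DKO and G2-WT about level and the array labelled G2KO lowest. Eno3, the muscle form, was at 1.89, 5.64, 1.82 and 2.07 and stood out on G2-WT alone, 2.99-fold above the array labelled G2KO.

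Taking hexokinase to pyruvate kinase as a group of 16 genes, 1 (Aldoc) was at least 2-fold higher in DKO (10.6% of all genes). At least 2-fold lower were 0 (9.61% of all genes), and the median log2 ratio was -0.06. Against G2-WT, 0 of the 16 were at least 2-fold higher (8.74% of all genes) and 5 lower (8.37%) in the G2KO comparison. The median there was -0.47. These counts use the brightest probe of each gene. Gapdh is not among the 5, although 4 of its 7 probes were at least 2-fold lower there. Relative to the median of all genes, 13 of the 16 were lower on the array labelled G2KO than on G2-WT, a count that also held without scaling, with scaling to the median and with normexp correction, but was 8 after quantile normalization. Between the arrays labelled WT 14 of the 16 were lower on DKO-WT relative to all genes, and 12 after quantile normalization. Tpi1, Hk2, Eno3 and Pfkl were at least 2-fold higher on G2-WT than on both of these arrays. Without scaling, Hk2, Pfkl and Tpi1 came to log2 ratios of -0.95, -0.58 and -0.98 in the G2KO comparison, under 2-fold, while Eno3 stayed past it under every scaling.

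Lactate dehydrogenase is a tetramer of A and B subunits, and the A form favours lactate production. Ldha was at 68.3 on the array labelled G2KO, 93.4 on G2-WT, 45.3 on DKO and 68.7 on DKO-WT. It was highest on G2-WT and lowest on DKO, and its 3 probes gave log2 ratios in DKO of -0.78 to -0.60. Ldhb was at 1.33, 2.24, 5.63 and 1.55. DKO stood above the other 3 arrays, 3.63-fold above DKO-WT, while the arrays labelled WT differed from each other by a log2 ratio of -0.53. The Ldhb probe lies on chromosome 6 at 142438770-142438829 of mm9. The A and B subunits thus differed in opposite directions between DKO and DKO-WT, although the ratio of Ldha stayed under 2-fold.

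Lactate leaves or enters the cell through the monocarboxylate transporters Slc16a1 and Slc16a3, the latter known as the exporter of glycolytic cells. Slc16a3 was at 0.178 on the array labelled G2KO, 0.119 on G2-WT, 0.195 on DKO and 0.0715 on DKO-WT. DKO and the array labelled G2KO were about level and DKO-WT was lowest, so that DKO was 2.73-fold above DKO-WT by this probe and 3.27-fold by the second, which overlaps it on chromosome 11 (120820030-120820089 and 120820023-120820082). Slc16a1 was at 0.0700, 0.0842, 0.0616 and 0.0883, lowest on DKO, with a log2 ratio of -0.52.

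**Figure D3:**
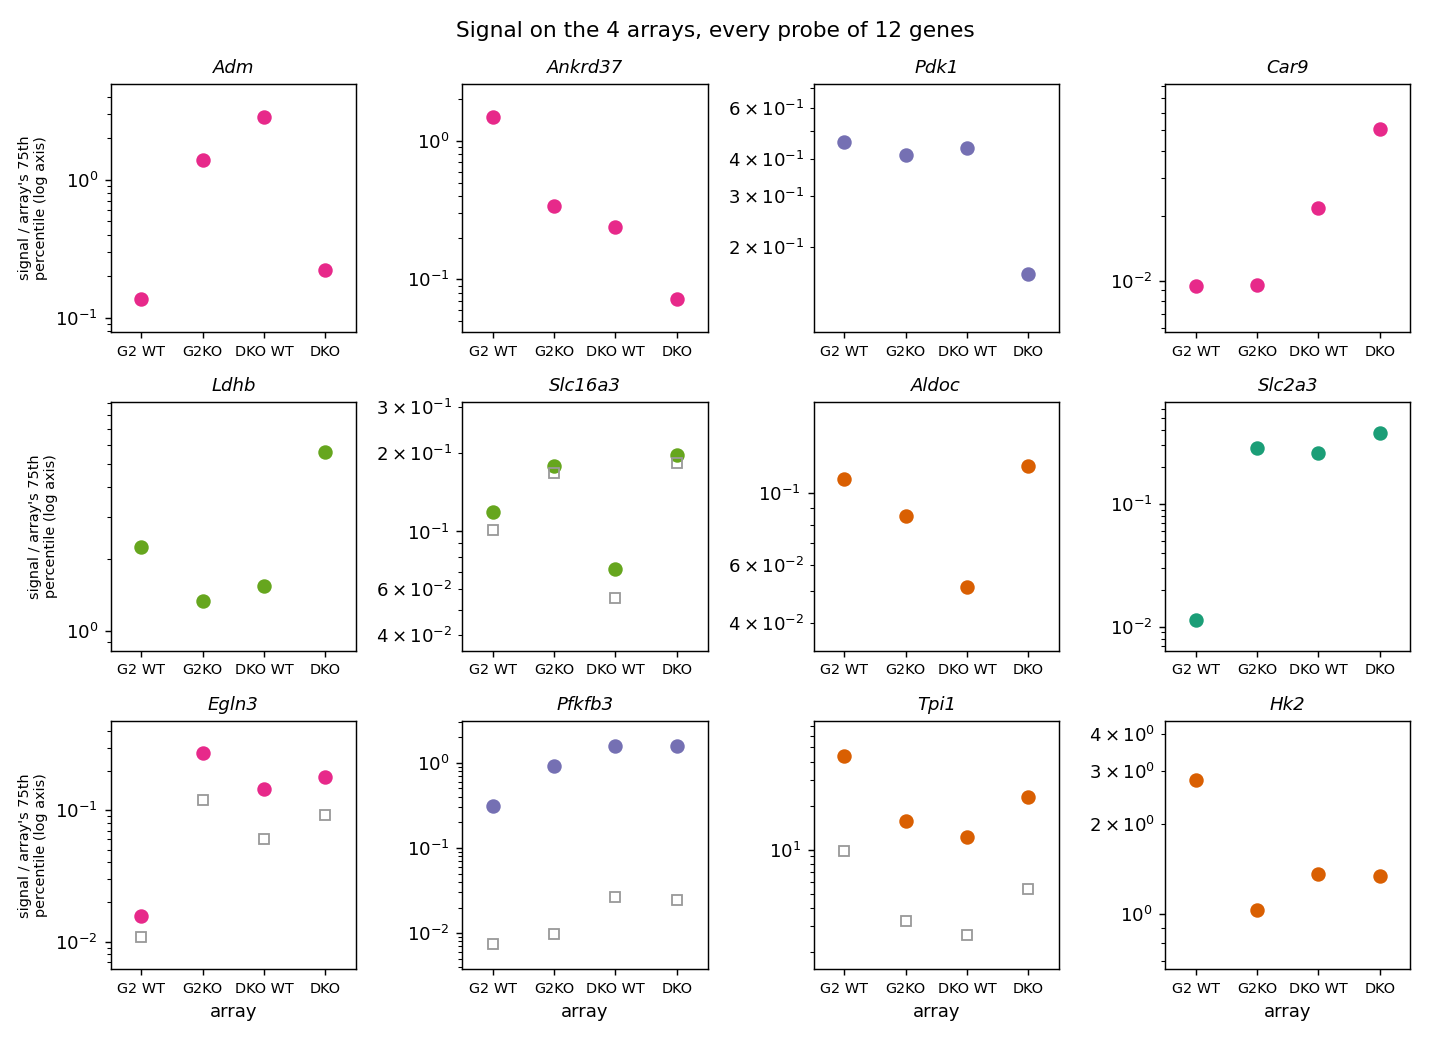
Level (signal over the 75th percentile of the array, log axis, each panel with its own range) of 12 genes on the arrays labelled G2-WT, G2KO, DKO-WT and DKO, 1 array each; filled circles are the brightest probe and open squares the other probes of the gene. Pdk1 is low on DKO alone, Ldhb and Car9 are highest on DKO, Slc2a3, Egln3 and Pfkfb3 are low on G2-WT, and Adm is low on both DKO and G2-WT.

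Regulatory kinases set how active pyruvate dehydrogenase is and how fast phosphofructokinase runs. Pyruvate dehydrogenase kinase 1 (Pdk1), a HIF target that shuts pyruvate dehydrogenase down, was at 0.412 on the array labelled G2KO, 0.460 on G2-WT, 0.162 on DKO and 0.437 on DKO-WT. The 3 arrays other than DKO lay close together, and DKO was 2.71-fold below DKO-WT, a log2 ratio of -1.44 beside -0.07 between the arrays labelled WT. Its probe lies on chromosome 2 at 71739688-71739747. Pdk3, a related kinase, was at 2.76, 1.04, 2.08 and 2.16 and was low on G2-WT alone. Its probe lies on the X chromosome, and the sex of the preparations was not examined.

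Pfkfb3 and Pfkfb4 make and remove fructose 2,6-bisphosphate, the activator of phosphofructokinase. Pfkfb3 was at 0.916 on the array labelled G2KO, 0.310 on G2-WT, 1.57 on DKO and 1.55 on DKO-WT. DKO and DKO-WT did not separate (log2 ratio 0.02), and G2-WT was 5.00-fold below DKO-WT. The second Pfkfb3 probe was not well above background on G2-WT and showed DKO-WT at least 3.62-fold higher. Pfkfb4 had log2 ratios of -0.21 in DKO and -0.21 in the array labelled G2KO, and its second probe was not well above background on any array.

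Of the hypoxia response genes outside glycolysis, adrenomedullin (Adm), a secreted vasodilator peptide, had the largest ratio of the 38 genes in DKO. It was at 1.39 on the array labelled G2KO, 0.137 on G2-WT, 0.220 on DKO and 2.85 on DKO-WT. The arrays fell into a high pair, DKO-WT and labelled G2KO, and a low pair, DKO and G2-WT. DKO was 13.0-fold below DKO-WT, and the array labelled G2KO was 10.1-fold above G2-WT. The arrays labelled WT differed by 20.8-fold. With the labels of the G2KO comparison exchanged, Adm was lower in both knockouts, at log2 ratios of -3.70 in DKO and -3.34 in G2KO. The single Adm probe lies on chromosome 7 at 117773088-117773147 of mm9.

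Ankrd37, an ankyrin-repeat protein whose gene is a HIF target, was at 0.336 on the array labelled G2KO, 1.49 on G2-WT, 0.0724 on DKO and 0.239 on DKO-WT. G2-WT was highest and DKO lowest. DKO was 3.30-fold below DKO-WT, the array labelled G2KO 4.43-fold below G2-WT, and DKO-WT 6.21-fold below G2-WT, so the ratio in DKO was smaller than that between the arrays labelled WT. With normexp correction the log2 ratio in DKO was -1.17 in place of -1.72. Its probe lies on chromosome 8 at 47082404-47082463.

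Car9, a membrane carbonic anhydrase used as a marker of hypoxic cells, was dim everywhere, at 0.00955, 0.00941, 0.0502 and 0.0216 on the arrays labelled G2KO, G2-WT, DKO and DKO-WT. DKO was highest, 2.32-fold above DKO-WT, and DKO-WT was in turn 2.30-fold above G2-WT. Near the floor of the arrays, which ranged from 0.00660 to 0.0102 for the lowest signal well above background, the size moved with background correction: with normexp the log2 ratio in DKO was 0.72, under 2-fold. Car9 lies on chromosome 4 at 43526518-43526577.

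The prolyl hydroxylases Egln1 and Egln3 mark HIF alpha subunits for destruction, and both are themselves induced by HIF in many cells. Egln3 was at 0.271 on the array labelled G2KO, 0.0156 on G2-WT, 0.180 on DKO and 0.144 on DKO-WT. It was low on G2-WT alone, 17.4-fold below the array labelled G2KO by this probe (log2 ratio 4.12, and 3.46 by the second), and the log2 ratio in DKO was 0.32. With normexp correction the log2 ratios to G2-WT went from 4.12 to 2.60 (array labelled G2KO) and from 3.20 to 1.82 (DKO-WT). Egln1, the main oxygen sensor of the family, had log2 ratios of -0.25 in DKO and -0.12 in the array labelled G2KO. The 2 hydroxylases therefore did not share the difference on G2-WT.

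Bnip3, a mitochondrial protein that triggers mitophagy, was at 1.96 on the array labelled G2KO, 5.15 on G2-WT, 2.49 on DKO and 2.28 on DKO-WT. It was highest on G2-WT, 2.26-fold above DKO-WT, and nearly level between DKO and DKO-WT, in the direction opposite to Egln3 and Adm on the same array. All 3 Bnip3 probes were highest on G2-WT. The dimmest gave log2 ratios to G2-WT of -0.59 (DKO-WT) and -0.74 (array labelled G2KO), both under 2-fold. Vegfa, the angiogenic growth factor, was at 4.91, 4.61, 3.28 and 4.13, with a log2 ratio of -0.33 in DKO. Ndrg1, a stress-induced gene, was at 1.36, 2.19, 4.02 and 2.49 and was highest on DKO, at a log2 ratio of 0.69. The collagen prolyl hydroxylase subunits P4ha1 and P4ha2 had log2 ratios in DKO of -0.10 and 0.67.

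As a group, the 10 hypoxia response genes had a median log2 ratio of 0.01 in DKO. Of them, 1 was at least 2-fold higher (10.6% of all genes) and 2 at least 2-fold lower (9.61%). In the G2KO comparison the median was -0.05, with 2 higher (8.74% of all genes) and 2 lower (8.37%). In each of the 3 comparisons 5 of the 10 had a log2 ratio above 0 and 5 below with the scaling used. Some of these signs rest on values near 0. In the G2KO comparison Car9 was at 0.02, Egln1 at -0.12, and Vegfa at 0.09, or -0.22 by its second probe. Whether these genes responded together was not tested. The HIF alpha subunits themselves differed little by their brightest probes. Hif1a was at 2.26, 1.71, 1.79 and 2.12 on the arrays labelled G2KO, G2-WT, DKO and DKO-WT, a log2 ratio of -0.25 in DKO, and Epas1 at 2.59, 3.38, 3.23 and 3.23. The Epas1 probes disagreed: a second probe, on chromosome 17 at 87232615-87232674, read 0.137, 0.696, 0.0900 and 0.231 in the same order and gave log2 ratios of -1.36 in DKO and -2.34 in the array labelled G2KO, beside 0.00 and -0.39 for the brightest probe at 87230678-87230737. No direction is given for Epas1. HIF activity is set mainly by the stability of these proteins, which transcript levels do not measure.

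For the 14 members with several probes, those well above background on all 4 arrays were compared. Epas1 and Gapdh had such probes that differed by over 1 on the log2 scale in any of the 3 comparisons. Pfkfb3 and Pfkfb4 had 1 such probe each, so no disagreement could be seen for them. Of the 7 genes at least 2-fold different in DKO, 5 had a larger log2 ratio in DKO than between the arrays labelled WT. Ankrd37 and Adm had a smaller one, and Car9 was about equal (1.21 in DKO and 1.20 between the arrays labelled WT, on the log2 scale). Over all 38 genes, 14 had a larger ratio in DKO than between the arrays labelled WT, a comparison in which both ratios use DKO-WT. Set against the ratio of DKO-WT to the array labelled G2KO, the pair of WT cells if the labels are exchanged, the ratio in DKO was larger for 7 of the 7 and for 26 of the 38. The 7 were picked by the size of their ratio in DKO, so the counts among them are no independent observation. The same share of all genes was not counted. Over 19466 genes, the SD of the log2 ratios was 1.04 between DKO and DKO-WT. It was 1.02 between DKO-WT and G2-WT and 0.54 between DKO-WT and the array labelled G2KO.

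**Figure D4:**
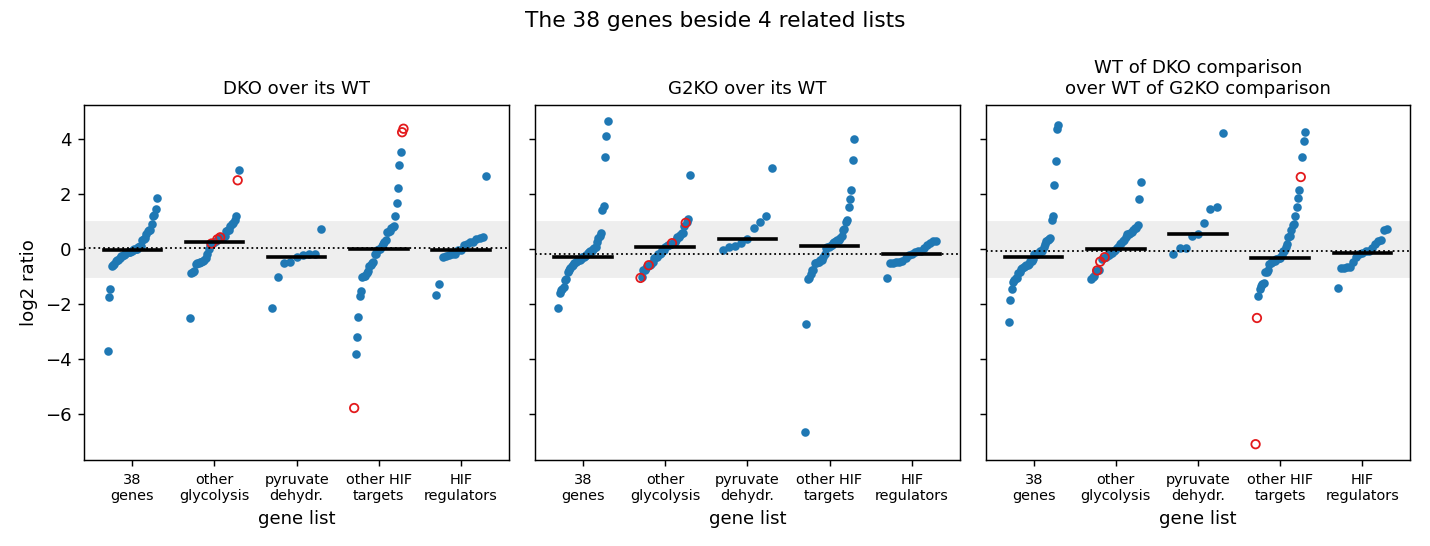
log2 ratios (y axis) of the 38 genes and of 4 related gene lists in the same 3 comparisons; each point is a gene, open red points are limits where 1 of the arrays was too dim for the gene, black bars are medians, the grey band is less than 2-fold and the dotted line is the median of all genes. In DKO the largest differences lie among other HIF targets, from an upper limit of -5.77 for Angpt1 to a lower limit of 4.37 for Igfbp3.

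Other genes of the pathways were taken from lists. Of 43 further names of glucose transport, glycolysis and its branches, 41 were found on the arrays and 35 had a ratio in DKO. Of these, 4 were at least 2-fold higher (10.6% of all genes) and 1 lower (9.61%), with a median log2 ratio of 0.26. Slc2a10, a member of the glucose transporter family, was at 0.0986 on the array labelled G2KO, 0.0151 on G2-WT, 0.598 on DKO and 0.0819 on DKO-WT, highest on DKO and 7.30-fold above DKO-WT. Bpgm, which makes 2,3-bisphosphoglycerate, was at 2.20, 4.40, 0.389 and 2.19 and was 5.61-fold lower in DKO than in DKO-WT. Ldhd, the D-lactate dehydrogenase, was well above background on DKO only and at least 5.67-fold higher there. These 3 genes show DKO outside the other arrays, Slc2a10 and Ldhd above and Bpgm below.

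Among 9 genes of pyruvate dehydrogenase and its regulators, 0 were at least 2-fold higher in DKO (10.6% of all genes) and 2 were lower (9.61%). The kinase Pdk4 was at 0.892 on the array labelled G2KO, 0.116 on G2-WT, 0.487 on DKO and 2.16 on DKO-WT, which repeats the order of Adm except that DKO lay nearer to the array labelled G2KO. It was 4.42-fold lower in DKO than in DKO-WT and 18.6-fold higher in DKO-WT than in G2-WT. Dlat, a core subunit of the complex, had a log2 ratio of -1.02 in DKO. Of 17 regulators of HIF, 1 was at least 2-fold higher in DKO and 2 lower, with a median of -0.01. The higher gene, Arnt2, a partner of HIF alpha subunits best known from neurons, was at 0.0622, 0.128, 0.300 and 0.0476, highest on DKO and 6.32-fold above DKO-WT.

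Of 42 names of other HIF targets, 38 were found and 37 had a ratio in DKO. Of these, 7 were at least 2-fold higher (10.6% of all genes) and 6 lower (9.61%), with a median of 0.02. By 4-fold or more, 5 were higher and 4 lower, where 8.07% of all genes differed by that much in either direction. Higher by 4-fold or more were Mxi1 (at least 19.0-fold), Igfbp3 (at least 20.7-fold), Car12 (11.4-fold), Angptl4 (8.30-fold) and Cxcl12 (4.63-fold). Igfbp3 was highest on G2-WT, at 1.39 beside 0.21 on DKO, and the arrays labelled WT differed by at least 135-fold for it. Car12, a membrane carbonic anhydrase like Car9, was at 0.272, 0.226, 2.04 and 0.178 on the arrays labelled G2KO, G2-WT, DKO and DKO-WT, so that DKO alone was high. Lower by 4-fold or more were Angpt1 (at least 54.5-fold), the stanniocalcin Stc2 (13.9-fold), the endothelin gene Edn1 (9.18-fold) and the mitochondrial adenylate kinase Ak3l1 (5.50-fold). Stc2 was at 0.633, 0.316, 0.0527 and 0.732 and Ak3l1 at 0.798, 0.975, 0.187 and 1.03, and for both DKO alone was low. In the same comparison the mesothelial markers had a median log2 ratio of 6.05 and the fibroblast markers of -0.65, and their part in these ratios was not tested.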

How the data were processed

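RNA of 4 MEF preparations was hybridised to Agilent single-color arrays, 1 per preparation, on 1 slide scanned together. The authors deposited spot intensities from Agilent Feature Extraction (10.7.3.1 in the file headers, 10.5.1.1 in the submitters' processing notes), which subtracts background and spatial trend within an array and leaves arrays unscaled. The deposited table holds the same intensity (largest log2 difference 0) and served as the unscaled alternative. The intensity of each spot, as deposited, is not a count, and precision is limited by the number of arrays.

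Outlier and control spots were left out, log2 intensity was scaled to the 75th percentile of each array, and spots of a probe were averaged. Ratios needed a signal well above background on at least 1 array. For a dim partner, the lowest signal well above background on its array was used, or the probe's own where that was greater, and the ratio is then a limit. Each gene is given by the probe with the highest mean signal over the 4 arrays, and further probes are given where they differ by over 1 on the log2 scale. No spot was saturated.

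The genes named are all 38 members, Ccng1 and Ccng2, and genes of the pathway lists that differed at least 4-fold in DKO; Ccng1, Ccng2 and marker sums serve as checks. Dlat, Pdgfra, Dcn, Col1a1, Vim, En2, Foxa2, Sox2, Lox, the dimmer Pfkp probe and second probes near the 2-fold line were named after their values were seen. Members and lists were chosen with earlier results of these data known. Samples were grouped by their labels. No test or p-value was used, because each group has 1 array; the ratio calculation was tested on simulated data. Endothelial, macrophage, erythroid and muscle marker lists were also measured: their summed levels ranged from 3.12 to 4.47, 12.3 to 23.3, 0.149 to 0.260 and 0.967 to 13.7 over the arrays.

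Alternatives were normexp correction with an offset of 50 (limma 3.58.1, R 4.3.3), quantile normalization, unscaled values, scaling to the median, stricter filters on dim probes, the median over a gene's probes, a 4-fold threshold and other reference arrays. Python 3.11.15, numpy 2.4.6 and pandas 2.3.3 were used. Probe positions are on mm9, promoters on GRCm38.p6; 35 of 38 members had a promoter entry, Pkm2 under its current symbol Pkm. Which part of a transcript a probe matches was not analysed here. The sources differ on the G2KO arrays: the labels describe single-color arrays, the methods dye swaps.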

Additional observations from a re-analysis of the deposited data

Results flagged for a closer look

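Adm went in opposite directions in the knockout comparisons. Its log2 ratio was -3.70 in DKO against DKO-WT and 3.34 in the array labelled G2KO against G2-WT, a difference of -7.03 on the log2 scale. With 1 array per group this difference was not tested, and the arrays labelled WT alone differed by 4.38 for this gene. With the labels of the G2KO comparison exchanged, both ratios were below 0 (-3.70 and -3.34) and differed by -0.36. With the labels as deposited, among the 38 genes, Adm was the only gene at least 2-fold different in opposite directions in these comparisons.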

How the results depend on the processing

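With no replicates, a median was taken to hold when it moved by less than 0.43, the median size of the log2 ratio between the arrays labelled WT over 19466 genes, and a count when it stayed within 1.5 times. By this measure, background correction, quantile normalization, scaling to the median, stricter filters and the median over probes kept the medians and the total counts of the 38 genes within these limits, although with normexp correction the genes at least 2-fold higher in DKO went from 4 to 2 and those with DKO above the other 3 arrays from 2 to 1. The limit of 0.43 is a spread of single genes and is larger than the main medians of the 38. Staying within it therefore does not show that a median is stable. With quantile normalization, for example, the median for the array labelled G2KO went from -0.27 to -0.04. At 4-fold the counts were 1 for DKO, 4 for the array labelled G2KO, 5 between the arrays labelled WT, and 0 for DKO outside the other 3 arrays. Without scaling, the median for the array labelled G2KO was 0.23 in place of -0.27, because the median of all genes moved from -0.17 to 0.33. Against G2-WT, DKO had 16 genes at least 2-fold different in place of 7, where all genes gave 25.8%, and the array labelled G2KO had 3 against DKO-WT and 3 against the mean of both arrays labelled WT in place of 12. Added after seeing the data, DKO against the array labelled G2KO gave 7 genes (18.4%, against 23.6% of all genes), and DKO outside the range without G2-WT gave 5. With the labels of the G2KO comparison exchanged, also added after seeing the data, the median of that comparison was 0.27, with 12 genes still at least 2-fold different, and the arrays then of WT cells differed for 3 genes in place of 13. Of 456 values of single genes under the scaling and background alternatives, 404 moved by less than 0.43, 52 moved by more and 0 of those at least 2-fold different changed direction. Leaving out a replicate was not possible with 1 array per group. No paired analysis was possible because each group has 1 array. Near the floor of the arrays, as for Car9, differences under 2-fold could not be resolved.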
